A study of Mus musculus with 16 samples.

Results

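The Gimap genes encode the GTPases of immunity-associated proteins, and 8 of them, Gimap1, Gimap3, Gimap4, Gimap5, Gimap6, Gimap7, Gimap8 and Gimap9, were taken by gene name from a count table of 46078 mouse genes. RNA of hematopoietic stem cells (HSCs) sorted by macrophage-1 antigen (MAC-1), the integrin of the Itgam and Itgb2 chains, was sequenced in 16 bulk samples of 5 populations. HSCs were taken from bone marrow as live lineage-negative SCA1+ cKIT+ (LSK) cells that were CD48- and CD150+. All samples were labelled B6.SJL strain and WT genotype. The steady state (SS) HSCs came from mice labelled untreated and comprised 3 SS MAC-1- and 3 SS MAC-1low samples. The 4 week HSCs were sorted 4 weeks after 8000 LSK cells had been given to recipients irradiated with 900 cGy, and comprised 3 4 week MAC-1-, 4 4 week MAC-1low and 3 4 week MAC-1+ samples. The labels give no mouse age and do not say whether samples came from separate mice, so every p-value below measures the spread between samples, which may be technical. No SS MAC-1+ samples were analysed here, so MAC-1+ HSCs could be compared with other populations at 4 weeks, but not with MAC-1+ cells at steady state.

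GIMAP proteins share a GTP-binding domain related to that of the septins and are best known from lymphocytes, where they sit on internal membranes or in the cytosol and bear on cell survival. Loss of Gimap5 in mice or rats leads to loss of peripheral T cells, and Gimap5 is also needed for the upkeep of hematopoietic stem and progenitor cells. The genes lie side by side in a single cluster, so that neighbours can be compared gene by gene.

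The table held 13781278 to 28580658 counts per sample, and a count of 0 allows up to 3 counts, which is 0.112 to 0.220 CPM (counts normalised to library size with TMM factors). Such floors cover counting error only, and the libraries started from small numbers of sorted cells. Counting noise alone would give a chi-square near its degrees of freedom between samples of a population, and it was 126 to 306 times as large. The biological coefficient of variation common to all genes was 1.13, which limits what can be called. Itgam, the gated MAC-1 chain, was counted 175, 478 and 96 times in MAC-1+ samples at 4 weeks against 0, 47 and 0 times in MAC-1- samples, a log2 difference of 4.54 with an adjusted p of 0.400 by edgeR's quasi-likelihood test. Itgb2, the other chain, was at 8.55, 15.2 and 15.9 CPM in these MAC-1+ samples and at 31.4, 18.8 and 30.3 CPM in the MAC-1- samples, lower without overlap and not called (log2 -1.02, adjusted p = 0.864). All 10 genes of the HSC marker list were detected in each population, but this list includes Cd48, which was gated out. In a bulk sample, fewer cells that use a gene and less RNA per cell cannot be told apart.

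In the GENCODE M21 annotation of GRCm38, the 8 members span chr6:48647234-48770851, a stretch of 123.6 kb, with the next protein-coding genes 13.5 kb to the left and 63.0 kb to the right. From left to right they lie in the order Gimap8, Gimap9, Gimap4, Gimap6, Gimap7, Gimap1, Gimap5 and Gimap3, of which 6 are on the forward strand and 2, Gimap6 and Gimap3, are on the reverse strand. All 8 were found in the RefSeq promoter table of GRCm38.p6. The 250 bases upstream of the annotated start are shown for the 3 members that rose in 4 week MAC-1+ HSCs and for Gimap9, which is next to Gimap8 and did not pass the test. They are written 5′ to 3′ on the strand of the gene, and capitals mark a match on either strand to the ETS core GGAAGT or to TATAAA.

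Gimap6, chr6:48708245-48708494, reverse strand: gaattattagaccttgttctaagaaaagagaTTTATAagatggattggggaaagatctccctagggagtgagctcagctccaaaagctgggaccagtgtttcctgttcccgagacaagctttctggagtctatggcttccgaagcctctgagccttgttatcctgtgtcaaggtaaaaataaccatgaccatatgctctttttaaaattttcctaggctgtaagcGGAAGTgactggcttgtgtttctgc

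Gimap5, chr6:48745947-48746196, forward strand: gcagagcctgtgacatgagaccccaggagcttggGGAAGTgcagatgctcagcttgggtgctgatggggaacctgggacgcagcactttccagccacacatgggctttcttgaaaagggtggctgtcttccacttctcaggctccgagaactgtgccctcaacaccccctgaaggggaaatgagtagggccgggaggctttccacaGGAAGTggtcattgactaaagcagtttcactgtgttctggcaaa

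Gimap8, chr6:48646984-48647233, forward strand: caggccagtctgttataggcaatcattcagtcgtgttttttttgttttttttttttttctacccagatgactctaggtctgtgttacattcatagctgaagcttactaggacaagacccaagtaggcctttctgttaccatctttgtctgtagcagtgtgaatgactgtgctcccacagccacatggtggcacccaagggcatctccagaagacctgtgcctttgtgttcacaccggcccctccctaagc

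Gimap9, chr6:48675885-48676134, forward strand: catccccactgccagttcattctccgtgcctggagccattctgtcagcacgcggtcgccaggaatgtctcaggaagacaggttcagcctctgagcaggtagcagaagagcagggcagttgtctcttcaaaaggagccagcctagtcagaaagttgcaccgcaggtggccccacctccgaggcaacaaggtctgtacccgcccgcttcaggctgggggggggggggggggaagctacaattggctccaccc

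The ETS letters stood 25 bases upstream of the Gimap6 start and 44 and 216 bases upstream of the Gimap5 start, and they occur in 19.7% of 32851 promoter windows of the same length. The TATAAA letters were found 219 bases upstream of Gimap6 on the opposite strand, and 12.4% of windows hold them. The RUNX core TGTGGT, held by 14% of windows, was matched upstream of Gimap4 at 145, Gimap7 at 79 and Gimap1 at 95 bases. AGATAA, the GATA core, and CAGCTG, an E-box, were in none of the 8 members' windows and in 9.99% and 13% of all windows. The windows of Gimap8, Gimap9 and Gimap3 held none of the 5 motifs searched, and these matches are descriptions of letters and not of bound sites.

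Summed over the 8 members, Gimap RNA was lowest in 4 week MAC-1- HSCs and highest in 4 week MAC-1+ HSCs. The sum was 371, 362 and 321 CPM in the 4 week MAC-1- samples. It was 464, 608 and 768 CPM in the SS MAC-1- samples and 661, 446 and 765 CPM in the SS MAC-1low samples. These ranges of SS HSCs overlapped each other and lay above every 4 week MAC-1- sample. The 4 week MAC-1low samples held 889.8, 705, 823 and 927 CPM, and the 4 week MAC-1+ samples 1421, 1225 and 1395 CPM. The MAC-1low values reached down into the SS range, while each MAC-1+ sample lay above all 13 others. On average this was 352 ± 26.5 CPM (SD, n = 3) in 4 week MAC-1-, 613 ± 152 (n = 3) in SS MAC-1-, 624 ± 163 (n = 3) in SS MAC-1low, 836 ± 97.5 (n = 4) in 4 week MAC-1low and 1347 ± 106 (n = 3) in 4 week MAC-1+ HSCs. On the log2 scale the summed level at 4 weeks was 1.94 higher with MAC-1+ than with MAC-1- HSCs, and no test was made on the sum. With the median over members of log2 CPM in place of the sum, the difference was 2.44.

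**Figure D1:**
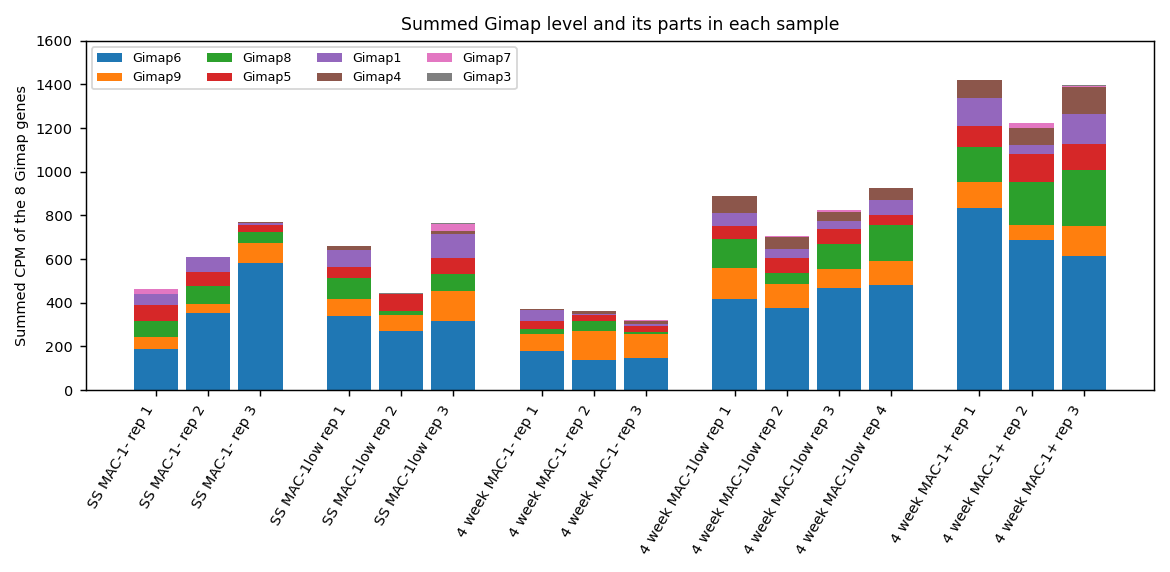
Summed CPM of the 8 Gimap genes in each of the 16 samples, with bars stacked by gene. The 3 4 week MAC-1- samples sit between 321 and 371 CPM and the 3 4 week MAC-1+ samples between 1225 and 1421 CPM, and Gimap6 is the tallest part of most bars.

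The members differed widely in level. Per kb of exon, Gimap6 averaged 114 CPM over all samples, ahead of Gimap9 with 60.4, Gimap8 with 26.0, Gimap4 with 19.6, Gimap1 with 18.2, Gimap5 with 15.8, Gimap7 with 2.85 and Gimap3 with 0.340 CPM per kb. Gimap6 thus made up 44.3% of the family per kb over all samples, but the order differed between populations. In 4 week MAC-1- HSCs Gimap9 led with 66.6 CPM per kb ahead of Gimap6 with 43.6, and Gimap4 ran from 0.736 in SS MAC-1-, below Gimap7 with 3.27, to 51.8 CPM per kb in 4 week MAC-1+ HSCs. Gimap1, Gimap5, Gimap6, Gimap8 and Gimap9 were above 0 in all 16 samples, while Gimap4 was at 0 in 2, Gimap7 in 3 and Gimap3 in 12 of them. Reads of Gimap3 and Gimap5 can be confused in part, because 190 stretches of 50 bases, 7.52% of those of Gimap3 and 4.53% of those of Gimap5, are identical in both genes, and no other pair of members shared any. All 8 members passed the filter on low counts, but Gimap3 did so on 287 counts in total.

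The first comparison, of MAC-1+ with MAC-1- HSCs at 4 weeks, asks what separates regenerating HSCs with and without MAC-1. Gimap5, Gimap6 and Gimap8 were higher in MAC-1+ HSCs, so that 3 of 8 members rose and 0 fell at an adjusted p under 0.1 in edgeR's quasi-likelihood test with Benjamini-Hochberg adjustment over 13661 genes. Of all genes tested, 3.25% were called in this comparison and 1.19% were called higher. The 3 genes lie in the left, middle and right of the cluster, with members that did not pass the test between them.

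Gimap6, a cytosolic GIMAP that binds the autophagy protein GABARAPL2, stood at 178, 136 and 145 CPM in the 4 week MAC-1- samples. It rose to 835, 686 and 615 CPM in the 4 week MAC-1+ samples, so that the lowest MAC-1+ sample was far above the highest MAC-1- sample. The log2 fold change was 2.22 (SE 0.31, 95% interval 1.57 to 2.87) with an adjusted p of 0.00186 by edgeR, which is 4.66-fold on the means.

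Gimap5, a lysosomal membrane GIMAP, had 35.7, 27.9 and 25.9 CPM in 4 week MAC-1- HSCs and 98.2, 125 and 121 CPM in 4 week MAC-1+ HSCs. The groups did not overlap, and the fold change of the means was 3.84 (log2 1.94, SE 0.36, edgeR adjusted p = 0.0115). Gimap8, the largest GIMAP protein with several GTP-binding domains in tandem, had 22.8, 42.8 and 7.85 CPM in 4 week MAC-1- and 157, 201 and 254 CPM in 4 week MAC-1+ HSCs. It showed the steepest of the 3 called changes, 8.32-fold on the means (log2 3.06, SE 0.67, edgeR adjusted p = 0.0267). Among these 3, its call was the one that depended on a single library, since without 4 week MAC-1- replicate 1 the adjusted p was 0.117, while Gimap5 and Gimap6 were called whichever sample was left out.

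**Figure D2:**
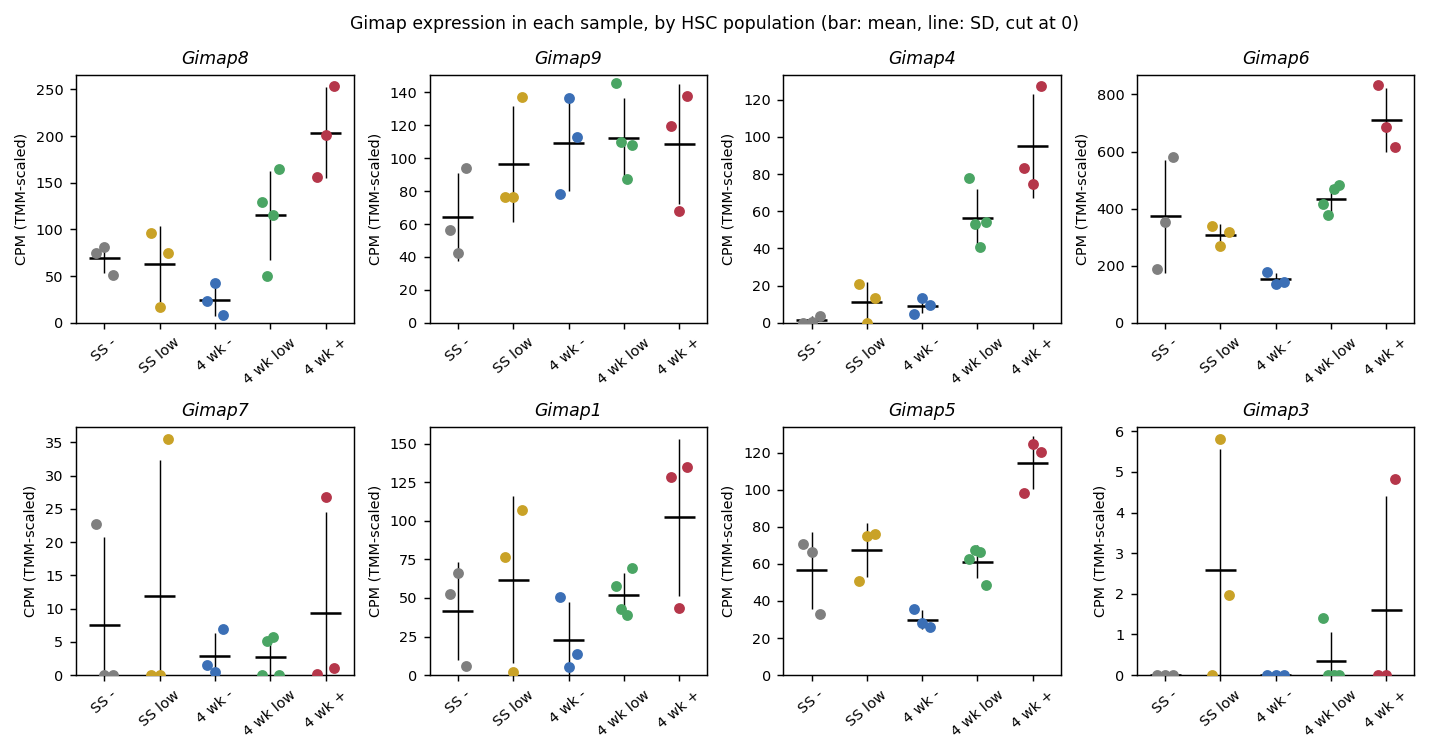
CPM of each Gimap gene in every sample, with genes in their order along the chromosome, points for samples, horizontal bars for means and vertical lines for SD. Gimap5, Gimap6 and Gimap8 have their lowest mean in 4 week MAC-1- and their highest in 4 week MAC-1+ HSCs, whereas the Gimap9 groups at 4 weeks overlap between 68.2 and 146 CPM.

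Gimap4, which speeds the death of T cells, was at 4.90, 13.2 and 9.66 CPM in 4 week MAC-1- and at 83.4, 74.9 and 127 CPM in 4 week MAC-1+ HSCs. These groups did not overlap, which 4 members showed in the upward direction against 10.2% of all genes, yet the log2 difference of 3.36 had an SE of 1.48 and an edgeR adjusted p of 0.340. DESeq2 and limma-voom called it, with adjusted p of 0.0682 and 0.0412, beside 9.67% and 6.34% of all genes. Fitted on the samples of these populations alone, edgeR called Gimap4 (adjusted p = 0.0709) but not Gimap8 (adjusted p = 0.101), beside 1.32% of all genes. Gimap1, which mature T and B cells need, had 50.4, 5.31 and 13.4 CPM in 4 week MAC-1- and 128, 43.8 and 135 CPM in 4 week MAC-1+ samples, with overlap and an edgeR adjusted p of 0.418 (log2 2.15, SE 1.10).

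Gimap9, per kb the most abundant member in 4 week MAC-1- HSCs, was close to 0 in its log2 difference. It had 78.5, 137 and 113 CPM in 4 week MAC-1- and 119.7, 68.2 and 138 CPM in 4 week MAC-1+ samples, and the groups overlapped throughout. The log2 difference was -0.01 with a 95% interval of -0.83 to 0.81, so that changes of the size seen for Gimap5, Gimap6 and Gimap8 lay outside it. Its sign changed with the scaling, to 0.06 with the size factors of DESeq2. The share of Gimap9 in the summed CPM was 31.4% ± 8.95 in 4 week MAC-1- and 7.96% ± 2.20 in 4 week MAC-1+ HSCs (SD, n = 3 each), and the ranges of 21.1 to 37.8% and 5.57 to 9.90% did not meet.

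Gimap7 and Gimap3 were too sparse to be placed. Gimap7, which can activate the GTPase of other GIMAPs, had 1.44, 0.417 and 6.88 CPM in 4 week MAC-1- and 0.0950, 26.8 and 0.989 CPM in 4 week MAC-1+ samples, so that a single library carried most of it, and its log2 difference changed from 1.67 to -2.39 without 4 week MAC-1+ replicate 2. Gimap3, a membrane GIMAP close in sequence to Gimap5, had counts of 104 and 38 in 2 SS MAC-1low samples, 23 in 1 4 week MAC-1low sample and 122 in 1 4 week MAC-1+ sample, and 0 elsewhere. Over the 8 members the median log2 difference between MAC-1+ and MAC-1- HSCs at 4 weeks was 2.19, against 0.07 over all genes tested. It was also 2.19 with Gimap3 set to 3.32, its mean in MAC-1+ samples against 3 counts per library in MAC-1- samples. That mean came from 1 library, and the value of 3.32 allows for counting error only, not for the spread between samples. Without Gimap3, 6 of 7 members had a positive difference, against 52.4% of all genes.

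In the summed level, each 4 week MAC-1low sample lay between the MAC-1- and the MAC-1+ samples of 4 weeks. The means of Gimap9 and Gimap7 did not lie between, with 113 CPM for Gimap9 in MAC-1low against 109 in both other populations, and 2.75 CPM for Gimap7 against 2.91 in MAC-1- and 9.30 in MAC-1+ HSCs. Against 4 week MAC-1- HSCs, 1 member, Gimap6, was called higher by edgeR, where 0.278% of all genes were called and 0.161% were called higher. Its 4 samples held 415, 376, 468 and 482 CPM, all above the MAC-1- samples (log2 1.51, SE 0.29, adjusted p = 0.0529). This call was lost when any of 4 week MAC-1- replicates 1, 2 and 3 or 4 week MAC-1low replicates 1, 3 and 4 was left out, with adjusted p of up to 0.312. Gimap5 at 62.8, 67.2, 66.4 and 48.5 CPM, Gimap8 at 129, 50.3, 116 and 165 CPM, and Gimap4 at 77.8, 53.0, 40.9 and 54.0 CPM were also above every 4 week MAC-1- sample without being called by edgeR, so that 4 members did not overlap, against 5.23% of all genes. Their log2 differences were 1.04 (adjusted p = 0.472) for Gimap5 and 2.23 (adjusted p = 0.305) for Gimap8. DESeq2 called Gimap5, Gimap6 and Gimap8, beside 3% of all genes.

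For MAC-1+ against MAC-1low HSCs at 4 weeks, edgeR called 0 members and 0% of all genes. At an unadjusted p under 0.05, 2 members, Gimap5 and Gimap6, were higher in MAC-1+ cells, beside 6.85% of all genes in either direction. Both also did not overlap, with a log2 difference of 0.90 (95% interval 0.21 to 1.59) for Gimap5 and 0.71 (95% interval 0.13 to 1.29) for Gimap6, and 3.75% of all genes were non-overlapping and higher. DESeq2 and limma-voom called 0 members here, beside 2.33% and 0.00732% of all genes.

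**Figure D3:**
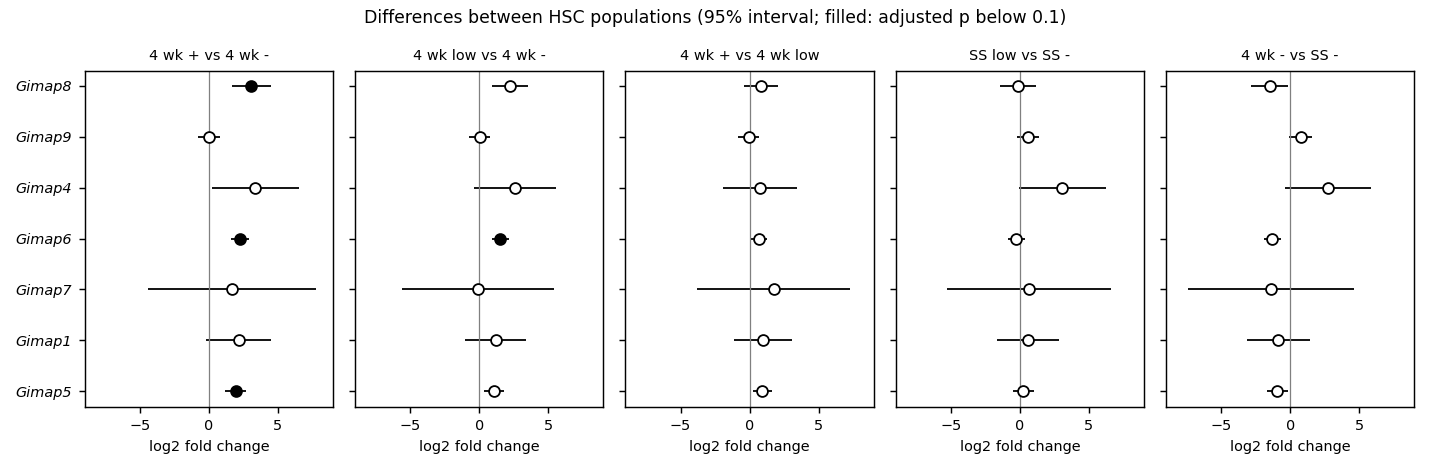
Log2 fold changes from edgeR for 7 Gimap genes in 5 comparisons, with 95% intervals as lines and filled points for an adjusted p under 0.1. Gimap3 is left out for its zeros, and the intervals of Gimap7 reach across 0 in each panel.

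The same MAC-1low against MAC-1- contrast was made at steady state. No member was called by edgeR, DESeq2 or limma-voom, and the share of all genes called was 0.0146% with edgeR, 5.39% with DESeq2 and 0% with limma-voom. Nor did any member, 0 of 8, have an unadjusted p under 0.05, beside 9.36% of all genes. Gimap6 had 187, 352 and 580.0 CPM in SS MAC-1- and 339, 269 and 319 CPM in SS MAC-1low samples, and Gimap5 had 70.8, 66.3 and 32.8 CPM in SS MAC-1- and 50.8, 75.3 and 76.2 CPM in SS MAC-1low samples. All 8 members overlapped between these populations, while 5.95% of all genes were higher and 5.38% lower without overlap. Whether the contrast differed between 4 weeks and steady state was tested as an interaction, which edgeR called for 0 members and 0.0586% of all genes. The interaction was 1.78 (SE 0.41, edgeR adjusted p = 0.228) for Gimap6 and 2.36 (adjusted p = 0.467) for Gimap8 on the log2 scale, and these 2 had an unadjusted p under 0.05, beside 8.73% of all genes. Without SS MAC-1- replicate 1 the interaction was called for 1 member, and the share of all genes called in that fit is not given. DESeq2 called the interaction for Gimap6 and Gimap8, beside 4.35% of all genes.

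Transplantation was compared within a MAC-1 class. In MAC-1- HSCs, 0 members were called by edgeR between 4 weeks and SS, where 0.432% of all genes were called. In the same test 3 members had an unadjusted p under 0.05, beside 10.4% of all genes. The mean at 4 weeks was lower for each of them, with log2 differences of -1.29 (SE 0.30, edgeR adjusted p = 0.119) for Gimap6, -0.93 (adjusted p = 0.398) for Gimap5 and -1.49 (adjusted p = 0.441) for Gimap8. Gimap6 and Gimap8 did not overlap in this direction, against 7.4% of all genes. Gimap4 was among the 2 of 8 members with a positive difference, at a mean of 9.26 CPM at 4 weeks against 1.35 CPM in SS (log2 2.76, edgeR adjusted p = 0.519). DESeq2 called 1 member, Gimap6, as lower at 4 weeks, beside 6.46% of all genes, and limma-voom called 0, beside 0.608%. Leaving out SS MAC-1- replicate 1, the lowest SS sample for Gimap6, made Gimap6 a called member in edgeR with an adjusted p of 0.00763. The share of all genes called in that fit is not given. In MAC-1low HSCs, 0 members were called by edgeR, DESeq2 or limma-voom and 0 had an unadjusted p under 0.05, where 0.0439% and 8.89% of all genes passed in edgeR, and 3.79% were called by DESeq2 and 0.176% by limma-voom. In this class 4 of 8 members had a positive difference. Among them, Gimap4 had a mean of 56.5 CPM at 4 weeks against 11.4 CPM in SS, and Gimap6 of 435 against 309 CPM. Their log2 differences were 2.31 (edgeR adjusted p = 0.666) and 0.495 (edgeR adjusted p = 0.627). Averaged over both MAC-1 classes 0 members were called by edgeR, beside 0.864% of all genes. In this average 2 members had an unadjusted p under 0.05, beside 12.6% of all genes, and they went in opposite directions. Gimap4 was higher at 4 weeks (log2 2.53) and Gimap5 was lower (log2 -0.53).

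Gimap4 was not called by edgeR in any comparison of 4 week with SS HSCs, though its levels lay far apart. It was at 0, 0.314 and 3.74 CPM in SS MAC-1- and at 21.1, 0 and 13.1 CPM in SS MAC-1low samples. All 4 week MAC-1low and MAC-1+ samples, from 40.9 to 127 CPM, were above all SS samples. The mean of 95.2 ± 28.1 CPM (SD, n = 3) in 4 week MAC-1+ and of 1.35 ± 2.08 CPM (SD, n = 3) in SS MAC-1- HSCs gave a log2 difference of 6.12 with an edgeR adjusted p of 0.105, just short of being called, where 2.36% of all genes were called and 0 members were. DESeq2 called 4 members in that comparison, Gimap4, Gimap5, Gimap6 and Gimap8, beside 10.4% of all genes, and limma-voom called 2, Gimap4 and Gimap6, beside 1.39%. In edgeR, 4 had an unadjusted p under 0.05, beside 14% of all genes. Without SS MAC-1- replicate 3 the log2 difference of Gimap4 was 9.09 and edgeR called 2 members, Gimap4 among them. Without SS MAC-1low replicate 2 it called 1, Gimap4, with an adjusted p of 0.0305. The share of all genes called in these fits is not given, so these calls cannot be set against it. The comparisons of 4 week MAC-1+ HSCs with different populations share the MAC-1+ samples.

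Against SS MAC-1low HSCs, 4 week MAC-1+ HSCs had more Gimap6, the 1 member called, beside 1.42% of all genes called and 0.586% called higher (log2 1.20, SE 0.30, edgeR adjusted p = 0.0957). With a sample left out, this call was made without SS MAC-1- replicate 1 or 3 and lost without any other, and the adjusted p reached 0.309. The other 2 comparisons across the classes, 4 week MAC-1- with SS MAC-1low and 4 week MAC-1low with SS MAC-1-, called 0 members in edgeR, beside 0.505% and 0.19% of all genes. In the former, 3 members had an unadjusted p under 0.05, beside 9.93%. These were Gimap5, Gimap6 and Gimap8, all lower at 4 weeks (log2 -1.18, -1.02 and -1.36). In the latter, 2 members did, beside 10.7%. These were Gimap4 and Gimap9, both higher at 4 weeks (log2 5.36 and 0.81). DESeq2 called Gimap5 and Gimap6 lower in the former, beside 5.36% of all genes, and Gimap4 higher in the latter, beside 6.14%. Limma-voom called 0 members in both, beside 1.9% and 0.285%. Without SS MAC-1- replicate 1 or 3, edgeR called 1 member in the former. An F test over the 5 populations called Gimap6 (edgeR adjusted p = 0.0155) and Gimap5 (adjusted p = 0.0811), beside 2.22% of all genes, and did not call Gimap8 (adjusted p = 0.121) or Gimap4 (adjusted p = 0.205). The test called 1 member without SS MAC-1- replicate 2, SS MAC-1low replicate 3 or any 4 week sample other than MAC-1low replicate 2. For all fits with a sample left out, the share of all genes called is not given.

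The genes around the cluster did not pass the test. Of the 10 nearest protein-coding neighbours, 5 on each side, 8 were in the table, and 5 of these passed the filter. Repin1, Zfp775 and AI854703 on the left had log2 differences of 0.69, -0.01 and -0.19 for MAC-1+ against MAC-1- HSCs at 4 weeks, and Tmem176b and Tmem176a on the right had 0.50 and 0.54, with edgeR adjusted p of 0.481 or more. Inside the cluster, Gimap1os rose by 2.79 (SE 0.65, edgeR adjusted p = 0.0403), from a mean of 9.57 to 66.0 CPM. It is a non-coding gene antisense to Gimap1, and 1107 exon bases, 36.0% of those of Gimap1, lie on it. Whether the counts used strand is not given in the sources used here, so reads of Gimap1 and Gimap1os cannot be told apart with certainty.

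**Figure D4:**
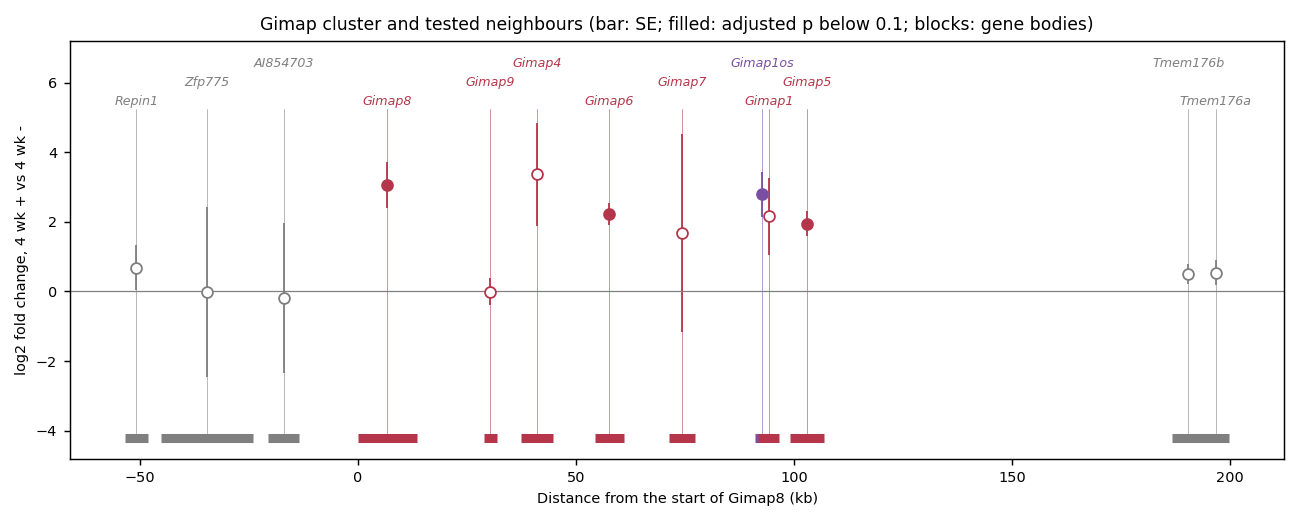
Log2 fold change of MAC-1+ against MAC-1- HSCs at 4 weeks by position, as the distance in kb from the start of Gimap8, for 7 Gimap genes (red), Gimap1os (purple) and the 5 tested neighbours (grey), with SE as lines and filled points for an adjusted p under 0.1. The called genes lie inside the cluster, and Gimap9 sits at -0.01 between Gimap8 at 3.06 and Gimap4 at 3.36.

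Over the 16 samples the members did not all vary together. Pearson's r of log2 CPM was 0.76 between Gimap6 and Gimap8, 0.68 between Gimap5 and Gimap8 and 0.66 between Gimap5 and Gimap6, and with the population means removed it was 0.04, -0.04 and -0.68. Gimap9 had an r of 0.09 with Gimap6 and of 0.66 with Gimap4. These are descriptions over samples that share populations and depth. The 10 genes most like the summed Gimap level among 11063 genes with a mean of at least 50 counts were Hbb-bt, a beta globin (r = 0.93), Wfdc17 (0.91), Fam134b (0.90), Pqlc3 (0.90), Sorl1 (0.88), Hlf, a transcription factor of HSCs (0.87), Ogt (0.86), Ubl3 (0.85), Emb (0.85) and Rbm43 (0.85). Among the genes most like single members were Skap2 for Gimap1 (0.86), Cxcl16 for Gimap3 (0.94), Neurl3 for Gimap5 (0.89), Wfdc17 for Gimap6 (0.90), Creld1 for Gimap7 (0.76), Pqlc1 for Gimap8 (0.87) and Tes for Gimap9 (0.90). The values for Gimap3 and Gimap7 rest on few counts, 287 and 1829 in total, and Gimap3 was above 0 in only 4 samples.

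Genes tied to GIMAP biology were followed in the same comparison. Of 16 partners and survival genes, among them the autophagy genes Gabarap, Gabarapl2 and Map1lc3b and the BCL2 family, 0 were called, and their median log2 difference was 0.25. The smallest p was that of the survival gene Mcl1 (log2 0.74, edgeR adjusted p = 0.361). Of 13 septins 8 were tested and 0 called, with a median of -0.05. Of 18 lymphoid priming genes 10 were tested and 1 was called, Cd27, a receptor of lymphoid cells and progenitors (log2 1.95, SE 0.46, edgeR adjusted p = 0.0418). Il7r had 0 counts in all samples, and Rag1, Rag2, Dntt, Ccr9 and Ly6d had 2 to 5 counts in total. Of the 10 genes in the HSC marker list 5 were called higher in MAC-1+ HSCs and 0 lower. The 5 include Hlf (log2 3.32, edgeR adjusted p = 0.00171), Mecom (log2 2.19, adjusted p = 0.00187) and Ly6a (log2 2.16, adjusted p = 0.00397). The median over the list was 1.57, and 8 of the 10 had a positive difference. Cd48, which was gated out, is counted in this list (log2 -1.76, edgeR adjusted p = 0.783).

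Markers of other cells were measured beside these values. T cells, which use most Gimap genes, have 17 markers in the table, of which 8 had under 20 counts in all samples together, among them Cd3e with 3, Cd3g with 4 and Cd8a with 1 counts. Their summed level was 78.6 to 87.6 CPM in 4 week MAC-1- and 21.5 to 46.0 CPM in 4 week MAC-1+ samples, most of it over all samples from Lat and Lck. In the SS MAC-1- samples, with Gimap sums of 464, 608 and 768 CPM, it was 54.4, 88.8 and 135 CPM. Of the 6 tested, 1 was called, Lat, which fell by 2.10 on the log2 scale at 4 weeks in MAC-1+ against MAC-1- HSCs (edgeR adjusted p = 0.0292), and 3 had a positive difference. Among these, Cd247 had 189, 45 and 29 counts in MAC-1+ and 0 in each MAC-1- sample (adjusted p = 0.186), and Lck and Thy1 had log2 differences of 1.39 (adjusted p = 0.896) and 0.06. The part of T cell RNA in the Gimap differences was not tested. For 10 NK cell markers the sum was 323 to 642 CPM in 4 week MAC-1- samples and up to 176 CPM in 4 week MAC-1+ samples, 98.5% of it from Nkg7 over all samples, and 8 of the 10 had under 20 counts. The sums for 9 B cell markers, 10.2 to 42.7 and 15.7 to 119 CPM, and for 8 endothelial markers, 0.314 to 12.5 and 0.997 to 12.6 CPM, overlapped. The 8 monocyte or macrophage markers summed to 352 to 584 and 458 to 719 CPM, and also overlapped.

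Of the tested markers of neutrophils 2 of 6 were called higher in the 4 week MAC-1+ samples, of erythroblasts 1 of 6 was called higher, and of megakaryocytes 3 of 6 were called lower. The 8 neutrophil markers summed to 23.1 to 69.7 CPM in 4 week MAC-1- and 164 to 7255 CPM in 4 week MAC-1+ samples, led by S100a8 with 94.3, 465 and 3911 CPM in MAC-1+ replicates 1, 2 and 3. In replicate 3, the MAC-1+ sample with most S100a8, Gimap6 was the lowest of the MAC-1+ samples at 615 CPM, while Gimap8 at 254, Gimap4 at 127, Gimap1 at 135, Gimap9 at 138 and Gimap3 at 4.83 CPM were the highest. Without it, Gimap5, Gimap6 and Gimap8 were still called. The 8 erythroblast markers summed to 23.3 to 36.9 CPM and to 83.4 to 178 CPM in the same populations. Hbb-bt led with 65.9% of the list over all samples. Of the 6 tested erythroblast markers, 3 had a positive difference. Klf1 and Epor had log2 differences of -3.67 (edgeR adjusted p = 0.675) and -1.56 (edgeR adjusted p = 0.755). The 6 megakaryocyte markers stood at 4251 to 6744 CPM in 4 week MAC-1- and 156 to 198 CPM in 4 week MAC-1+ samples, led by Pf4. The part of these 3 lists in the Gimap differences was not tested.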

How the data were processed

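RNA of HSCs was measured by SMART-Seq v4 and Nextera XT in 16 samples, mapped to population and replicate number by their labels. The authors deposited 1 table of raw counts per gene, made by STAR within nf-core's RNA-seq pipeline 1.4.2. Which program counted, on which strand and build and with which annotation is not given in the sources used here. As the method has no molecular identifiers, PCR copies are counted, and longer transcripts give more counts. Positions came from GENCODE M21 and upstream sequence from RefSeq GRCm38.p6.

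The treatment text in the labels names transplantation for all samples, and the SS samples were taken as untreated from their own label. Counts of the 16 samples entered 1 model with a mean per population in edgeR 4.0.16 (R 4.3.3), with TMM factors, the default filter on low counts, which kept 13661 genes, and the robust quasi-likelihood test. The 10 pairs of populations, an interaction, a 4 week against SS average and an F test were contrasts of that model. P-values were adjusted over all tested genes after Benjamini-Hochberg, and a gene was called at an adjusted p under 0.1. Members were called in the same way, and the prior count for log2 CPM was 2. DESeq2 1.42.0, limma-voom (limma 3.58.1), other scaling, filters, thresholds, sample sets and left-out samples were alternatives, and the tests were first run on simulated counts. Plots used Python 3.11.15 and matplotlib 3.10.9.

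The members and the gene lists were chosen with earlier results of these data known. Named were the 8 members, the 10 genes most like the summed level and 1 gene most like each member, of which 1 is not reported here, 5 neighbours per side, up to 3 genes of each list by adjusted p, Itgam and Itgb2, and genes inside the cluster. Defining or leading markers of other cells and the autophagy genes were named after their values were seen.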

Additional observations from a re-analysis of the deposited data

Results flagged for a closer look

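Gimap3 in 4 week MAC-1low replicate 1 stood apart from its group, with 1.41 CPM against 0 in the other 3 samples. It was the 1 such case among 9 groups of 4 4 week MAC-1low samples tested, 1 for each member and 1 for the sum. With 0 in the other 3 samples, any value above 0 would have been marked. The rate of about 1 in 20 groups marked by chance alone does not hold for such values.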

How the results depend on the processing

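The numbers of called members moved with the method and the samples. With a sample left out, they cannot be set against the share of all genes called, which is not given for those fits. For MAC-1+ against MAC-1- HSCs at 4 weeks 3 to 4 members were called under the alternatives and 2 to 3 with a sample left out. For 4 week MAC-1low against MAC-1- the count of 1 became 3 with DESeq2, 2 without a filter and 0 at a threshold of 0.05, and was 0 to 1 with a sample left out. Against SS MAC-1-, 4 week MAC-1- gave 1 with DESeq2 and without a filter (0 to 1 left out), 4 week MAC-1+ gave 4 with DESeq2 and 2 with limma-voom (0 to 2 left out), and 4 week MAC-1low gave 1 with DESeq2. Against SS MAC-1low, 4 week MAC-1+ gave 2 with DESeq2 and 0 at 0.05 and with the 2 groups alone (0 to 1 left out), and 4 week MAC-1- gave 2 with DESeq2 (0 to 1 left out). The interaction gave 2 with DESeq2 and 1 without a filter (0 to 1 left out), the average 1 with DESeq2 and limma-voom, and the F test 4 with both tools and 1 at 0.05 (1 to 3 left out). The median over members gave log2 differences of 2.44 and 1.66 in place of the sums for MAC-1+ and MAC-1low against MAC-1- at 4 weeks. Gimap7 turned to -0.0362 with limma-voom. Gimap9 turned to 0.0627 with DESeq2 and with its size factors, 0.0360 without a filter, 0.0211 with Gimap3 and Gimap5 summed and 0.00583 with the groups alone, and left-out fits ran from -0.20 to 0.27 for Gimap9 and from -2.39 to 3.31 for Gimap7. The cause of these shifts was not tested.

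Same-numbered samples of different populations had deviations with r of -0.03 to 0.04, and differently numbered ones of -0.05 to 0.04. Of 15 samples, 6 were most like a sample with their own number, so these numbers showed no pairing. At 4 weeks, consecutive library names join samples with different replicate numbers, and a pairing by library names was not tested. A block by replicate number gave 0 called members for 4 week MAC-1low against MAC-1-. It gave 0 for 4 week MAC-1+ against SS MAC-1low and 1 in the F test. Low counts limit Gimap3 and Gimap7.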
